A study of Mus musculus with 7 samples.

Results

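The genes described here are 8 components of the death receptor and apoptosome routes to apoptosis: Fas, Fasl, Fadd, Cflar, Casp8, Casp9, Apaf1 and Xiap. They were taken by name, with every probe set that carries that gene symbol alone in the platform annotation, which gave 23 of the 45101 probe sets on the array. At the gene level they are 8 of 18194 named genes, with the brightest probe set standing for each, and 7 of the 8 were among the 8203 genes tested. Fasl stayed near background and was not tested. RNA was measured in OT-I cells, CD8 T cells of Ly5.1 OT-I transgenic mice whose receptor recognises an ovalbumin peptide, after transfer as naive CD44lo cells labelled with the division dye CFSE. The RIP-OVAhi group (n = 2 arrays, RNA of cells pooled from 20 mice each) had divided at least 2 times within 60 h in hosts used as a model of deletional tolerance, and came from sacral and pancreatic lymph nodes. The OCS/LPS group (n = 2, 10 mice each) had divided at least 2 times within 60 h in spleens of mice primed with ovalbumin-coated splenocytes and lipopolysaccharide. The Rag group (n = 1, 10 mice) had divided at least 2 times over 5 days in spleens of Rag-/- mice, which make no mature lymphocytes of the T and B lineages, and the naive group (n = 2, 10 mice each) was undivided after 60 h in spleens of B6 mice without the antigen. All are on the C57BL/6 background per the labels. Tissue and group cannot be told apart for RIP-OVAhi, nor time and host for Rag, and the pooled RNA hides differences between mice.

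Fas is a death receptor on activated lymphocytes, and Fas ligand is the protein that triggers it. The engaged receptor binds the adaptor FADD, which recruits caspase-8, and cFLIP, the product of Cflar, competes with caspase-8 at the adaptor. In the mitochondrial route, cytochrome c released from mitochondria binds APAF1, which assembles into the apoptosome and activates caspase-9, and XIAP inhibits caspase-9 and the executioner caspases. Activated T cells are known to be removed through both routes, so the components are of interest where transferred cells are deleted.

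The sorted cells carried T cell transcripts on every array: all 6 CD8 T cell markers named on the array lay at log2 5 or more on all 7. The log2 of their summed level was 15.05 and 15.06 in RIP-OVAhi cells, 15.01 and 14.86 in OCS/LPS cells, 15.08 in the Rag array, and 14.92 and 15.02 in naive cells. Markers of other cells differed between groups. Of 9 myeloid markers, 0 reached log2 5 in RIP-OVAhi cells, 2 in OCS/LPS cells, 5 in the Rag array and 2 or 3 in naive arrays, with the log2 of the summed level at 6.35 to 6.57, 8.14 to 8.75, 10.02 and 8.46 to 9.11. All 4 MHC class II markers were under log2 5 in RIP-OVAhi cells, whereas 4 reached it in OCS/LPS cells, 4 in the Rag array and 3 or 4 in naive arrays, with summed levels of 5.57 to 5.78, 7.65 to 8.40, 9.16 and 7.66 to 7.68. The 2 plasma cell markers summed to 3.78 to 3.95 in RIP-OVAhi, 8.17 to 9.06 in OCS/LPS, 3.83 in Rag and 8.18 to 8.93 in naive arrays. Of 5 B cell markers, 3 reached log2 5 in RIP-OVAhi, 3 or 4 in OCS/LPS, 2 in Rag and 2 or 3 in naive arrays, with Cd79a near background on all, and they summed to 11.99 to 12.04, 12.72 to 12.73, 11.91 and 12.20 to 12.27. Among them Cd22 read 6.53 and 7.03 in RIP-OVAhi cells and 8.20 and 8.55 in OCS/LPS cells, with 4.28 in the Rag array and 4.04 and 3.59 in naive cells. The replicate arrays correlated at r = 0.991 in RIP-OVAhi cells, 0.991 in OCS/LPS and 0.975 in naive cells across genes. The naive pair differed most, with 347 genes over 2-fold apart, against 28 in RIP-OVAhi cells and 31 in OCS/LPS.

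In the gene-level fit Apaf1 was the only member called in any of the 6 comparisons, and it was higher in both antigen-driven groups than in naive cells. Its level was 9.51 and 9.70 on the log2 scale in RIP-OVAhi cells, against 7.79 and 8.07 in naive cells. In OCS/LPS cells it was 9.83 and 9.87, and in Rag cells 8.83. Both antigen-driven groups lay above the Rag array, which lay above both naive arrays, and no groups overlapped. Among all tested genes, arrays of the groups did not overlap for 66.0% between RIP-OVAhi and naive, 68.0% between OCS/LPS and naive, 67.6% between Rag and naive, 57.6% between RIP-OVAhi and OCS/LPS, 86.0% between RIP-OVAhi and Rag and 87.2% between OCS/LPS and Rag. Apaf1 was 3.19-fold higher in RIP-OVAhi than in naive cells (log2 difference 1.67, SE 0.15, limma adjusted p = 0.000825). It was 3.79-fold higher in OCS/LPS than in naive cells (1.92, SE 0.15, adjusted p = 0.000425). The RIP-OVAhi difference was larger in size than that of 94.2% of the tested genes and the OCS/LPS difference than that of 94.9%. Both calls held in every one of the 15 alternative settings, with adjusted p of at most 0.0183 (RIP-OVAhi) and 0.0106 (OCS/LPS). The 2 comparisons share the naive arrays.

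Among the dividing groups, Apaf1 differed by -0.25 between RIP-OVAhi and OCS/LPS (SE 0.15, 95% interval -0.61 to 0.11, adjusted p = 0.486), and that difference did not pass the test. RIP-OVAhi exceeded Rag by 0.78 (SE 0.18, adjusted p = 0.0365) and OCS/LPS exceeded Rag by 1.03 (SE 0.18, adjusted p = 0.0164). Rag has 1 array, whose spread was taken from the other groups, and both calls were lost without any of the 4 RIP-OVAhi or OCS/LPS arrays (adjusted p up to 0.182 and 0.101). The difference of Rag from naive, 0.90 (SE 0.18, adjusted p = 0.0685), did not pass; it passed without naive replicate 1 (0.76, adjusted p = 0.0334), without naive replicate 2 (1.03, adjusted p = 0.0430) and with centring on the array median (0.96, adjusted p = 0.0420). The levels ran in the order naive, Rag, RIP-OVAhi and OCS/LPS, with the neighbours Rag and naive, and OCS/LPS and RIP-OVAhi, not separated by the test.

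The second probe set of Apaf1 stayed under log2 5 on every array and was not tested. It read 2.32 and 2.33 in RIP-OVAhi cells, 2.92 and 3.36 in OCS/LPS cells, 2.11 in the Rag array, and 2.14 and 2.16 in naive cells. The highest pair was again OCS/LPS, at values where the array gives little signal. With the mean of both probe sets in place of the brighter one, Apaf1 was 0.93 higher in RIP-OVAhi and 1.45 higher in OCS/LPS than in naive cells on the log2 scale.

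**Figure D1:**
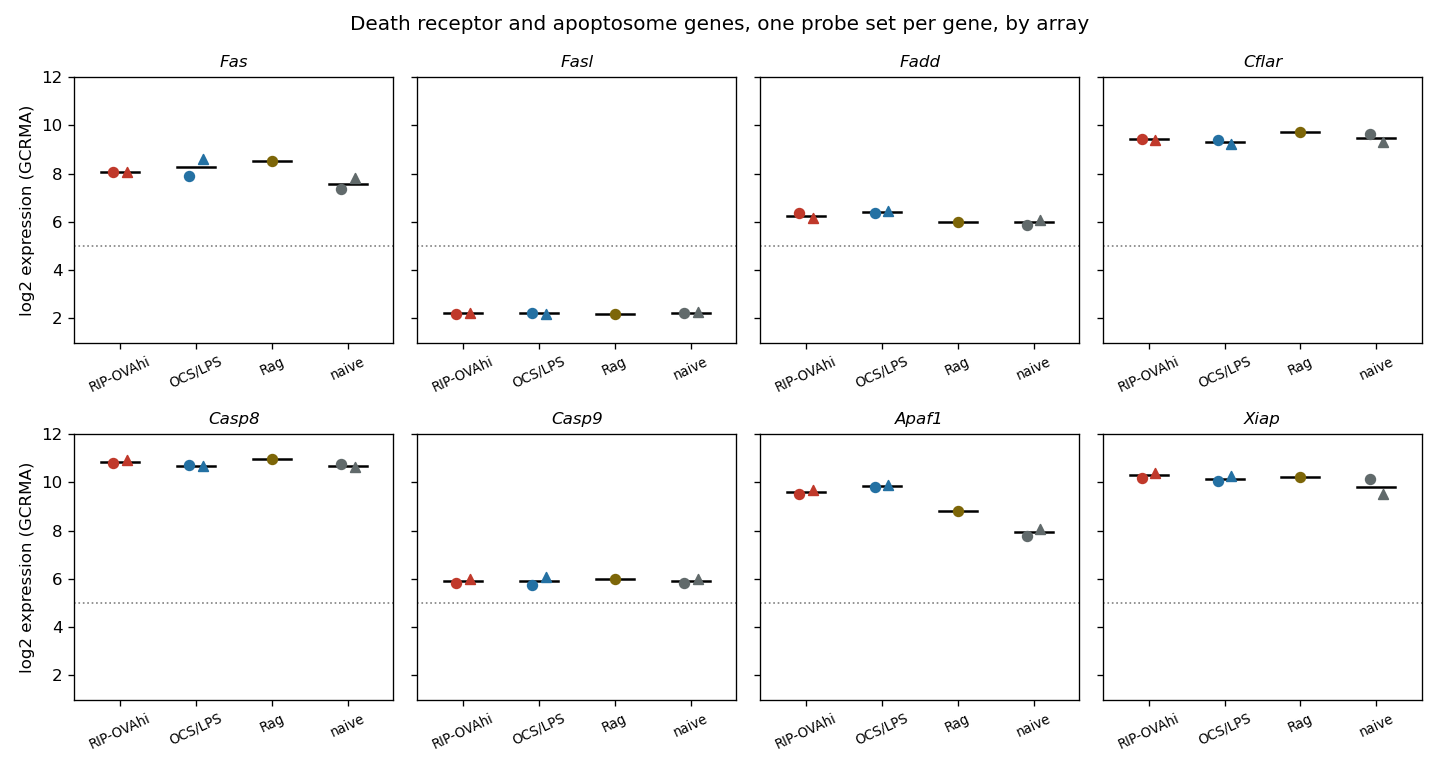
Log2 expression (GCRMA, vertical axis) of the 8 genes in RIP-OVAhi, OCS/LPS, Rag and naive cells, with 1 point per array (circles replicate 1, triangles replicate 2), bars at group means and a dotted line at log2 5. Apaf1 averages 9.60 in RIP-OVAhi, 9.85 in OCS/LPS, 8.83 in Rag and 7.93 in naive cells, Fasl lies near 2.2 on every array, and the other genes span at most 1.26 over the arrays.

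By likeness of pattern over the 7 arrays, the tested genes closest to Apaf1 were Cdca3 (r = 0.9995) and Spc25 (r = 0.999), both genes of mitosis, and Ctla2a (r = 0.999), a cathepsin inhibitor gene. Cdca3 stood at 9.20 and 9.57 in RIP-OVAhi cells, 10.16 and 10.34 in OCS/LPS cells, 6.91 in the Rag array, and 3.86 and 4.71 in naive cells. Spc25 too was under log2 5 in naive cells (4.12 and 4.94). For both genes the naive end of the likeness rests on values near background. The arrays fall into groups, so these correlations describe the shared order of the groups, and no p is given. Cycling-cell markers moved in the same order: the log2 of the summed level of 5 markers was 13.7 and 13.8 in RIP-OVAhi cells, 14.1 and 14.3 in OCS/LPS cells, 11.5 in the Rag array, and 7.76 and 8.44 in naive cells. Of these 5 markers, 2 reached log2 5 on each naive array and 5 on every other array. The B cell marker Cd22 ran in the same group order, but the summed level of the B cell list did not. That sum was mostly Ighm, at 11.86 and 11.85 in RIP-OVAhi cells. The B cell sum was lowest in the Rag array (11.91) and lower in RIP-OVAhi (11.99 to 12.04) than in naive arrays (12.20 to 12.27). Cd79b of that list averaged higher in RIP-OVAhi (8.16) than in naive cells (7.69), with overlapping arrays. Ighm and Ms4a1 were lower in RIP-OVAhi than in naive arrays, with Ms4a1 under log2 5 in RIP-OVAhi (3.74 and 3.98). The myeloid, MHC class II and plasma cell sums were lower in RIP-OVAhi than in naive arrays as well. The part of any of these markers in the difference of Apaf1 was not tested. In sorted, pooled cells a larger share of cells with the transcript and more transcript per cell cannot be told apart.

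**Figure D2:**
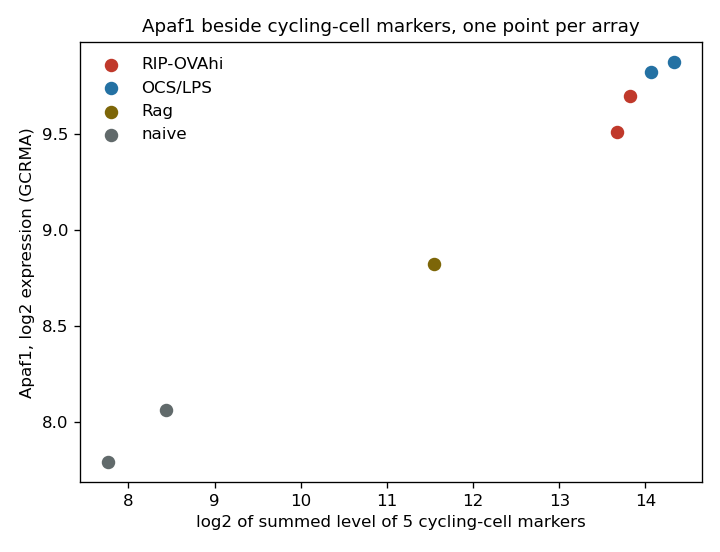
Log2 expression of Apaf1 (vertical axis) against the log2 of the summed level of 5 cycling-cell markers (Mki67, Top2a, Ccnb2, Aspm and Tpx2, horizontal axis), 1 point per array, coloured by group. The naive arrays sit at the lower left (7.79 and 8.07 for Apaf1), Rag in the middle (8.83), and the RIP-OVAhi and OCS/LPS arrays at the upper right (9.51 to 9.87).

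Apaf1 is known as a target of E2F and p53 transcription factors, and E2F sites are common at genes induced at cell-cycle entry, so the 250 bases before its RefSeq start are shown beside those of Fadd, the member whose window held an E2F consensus match. All 8 genes matched RefSeq promoters (GRCm38.p6, 10 windows, Xiap having 3). The Apaf1 window is chr10:91082744-91082993 and the Fadd window chr7:144582442-144582691, both on the minus strand and printed 5′ to 3′ along the gene, with a match in capitals.
Apaf1: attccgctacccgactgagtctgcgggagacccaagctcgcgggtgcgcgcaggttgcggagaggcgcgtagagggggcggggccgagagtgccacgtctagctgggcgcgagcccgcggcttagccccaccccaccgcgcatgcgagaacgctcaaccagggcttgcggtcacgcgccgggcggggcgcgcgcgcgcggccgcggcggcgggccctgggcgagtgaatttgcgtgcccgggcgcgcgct
Fadd: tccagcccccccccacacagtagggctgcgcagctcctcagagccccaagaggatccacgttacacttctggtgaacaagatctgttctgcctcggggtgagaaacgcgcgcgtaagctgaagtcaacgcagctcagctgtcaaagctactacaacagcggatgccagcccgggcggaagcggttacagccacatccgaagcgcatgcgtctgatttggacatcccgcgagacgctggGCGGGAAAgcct
The motifs searched were TTTGGCGC, TTTCGCGC, TTTCCCGC and TTTGCCGC on both strands. Fadd held 1 match, TTTCCCGC on the opposite strand, starting 12 bases before the start, and no match was found in the other 9 member windows, Apaf1 included. Among all 32851 RefSeq windows of the same length 1.86% held a match. The Apaf1 window was 75.6% G and C, against a median of 52.4% over all windows. A match in letters is not a measured binding site, and its absence covers this window only.

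The receptor and its ligand came next. Fas read 8.07 and 8.07 in RIP-OVAhi cells, 7.90 and 8.63 in OCS/LPS cells, 8.52 in the Rag array, and 7.37 and 7.80 in naive cells. Every divided array lay above both naive arrays, where 66.0% to 68.0% of all tested genes did not overlap naive, depending on the group. Relative to naive cells the log2 difference was 0.48 in RIP-OVAhi (SE 0.27, adjusted p = 0.230), 0.68 in OCS/LPS (SE 0.27, adjusted p = 0.104) and 0.93 in Rag (SE 0.33, adjusted p = 0.225). None passed the test, and the 95% intervals ran from -0.18 to 1.14, from 0.02 to 1.34 and from 0.12 to 1.74. RIP-OVAhi and OCS/LPS differed by -0.20 (95% interval -0.86 to 0.47). The OCS/LPS arrays lay far apart from each other. The tested genes closest to Fas in pattern were Sfn (r = 0.966), Coasy (r = 0.953) and Rnmt (r = 0.919), over the same 7 arrays and with no p. Sfn lay close to log2 5 on every array (4.88 to 5.34), so its likeness rests on values near background.

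Fasl was at background in every group. Its first probe set read 2.20 and 2.21 in RIP-OVAhi cells, 2.21 and 2.20 in OCS/LPS cells, 2.20 in the Rag array, and 2.22 and 2.25 in naive cells. The second read 2.12 and 2.14, 2.24 and 2.35, 2.16, and 2.17 and 2.18 in the same groups. Neither reached log2 5 on any array, so no level of the ligand transcript can be given, and an unresponsive probe set and a silent gene cannot be told apart here.

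Fadd, the adaptor, read 6.36 and 6.15 in RIP-OVAhi cells, 6.36 and 6.45 in OCS/LPS cells, 6.01 in the Rag array, and 5.89 and 6.10 in naive cells. The antigen-driven arrays lay above the naive ones, where 66.0% (RIP-OVAhi) and 68.0% (OCS/LPS) of all tested genes did not overlap naive in either direction. The log2 difference from naive was 0.26 in RIP-OVAhi (SE 0.14, adjusted p = 0.230) and 0.41 in OCS/LPS (SE 0.14, adjusted p = 0.0742), and neither passed. Without naive replicate 2 the OCS/LPS difference was 0.51 and passed (adjusted p = 0.0375). The Rag difference was 0.01 (SE 0.17). The other Fadd probe set stayed at 2.65 to 2.71.

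Casp8, the initiator caspase of the death receptor route, varied little. It read 10.79 and 10.95 in RIP-OVAhi cells, 10.72 and 10.67 in OCS/LPS cells, 10.98 in the Rag array, and 10.78 and 10.62 in naive cells. All 7 arrays lay within 0.36 of each other. The difference from naive was 0.17 in RIP-OVAhi (95% interval -0.15 to 0.48), -0.01 in OCS/LPS (-0.32 to 0.31) and 0.27 in Rag (-0.11 to 0.66). A change over 1.40-fold in RIP-OVAhi or 1.24-fold upward in OCS/LPS lies outside these intervals.

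Cflar, the next protein-coding gene to Casp8 on chromosome 1 in RefSeq with 0 such genes between them, encodes the caspase-8-like inhibitor cFLIP. Its main probe set read 9.44 and 9.41 in RIP-OVAhi cells, 9.38 and 9.21 in OCS/LPS cells, 9.74 in the Rag array, and 9.66 and 9.33 in naive cells. The naive pair overlapped both antigen-driven groups, and Rag was highest. The difference from naive was -0.07 in RIP-OVAhi (SE 0.15, adjusted p = 0.766), -0.20 in OCS/LPS (SE 0.15, adjusted p = 0.358) and 0.24 in Rag (SE 0.19, adjusted p = 0.56). OCS/LPS lay 0.44 under Rag (SE 0.19, adjusted p = 0.163), which passed only without naive replicate 1 or 2 (adjusted p = 0.0471 each).

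The 5 probe sets of Cflar did not run together. Probe set 1449317_at read 7.22 and 7.49 in RIP-OVAhi cells, 7.40 and 7.22 in OCS/LPS cells, 6.51 in the Rag array, and 7.09 and 7.22 in naive cells. Here Rag was lowest, whereas in the main probe set it was highest. In the fit over 13853 probe sets, this probe set was 0.84 higher in RIP-OVAhi than in Rag (SE 0.19, adjusted p = 0.0389). It was 0.80 higher in OCS/LPS than in Rag (SE 0.19, adjusted p = 0.0426). Both calls were lost without any of the RIP-OVAhi or OCS/LPS arrays (adjusted p up to 0.184 and 0.174). In that fit 14.7% of probe sets were called between RIP-OVAhi and Rag and 15.8% between OCS/LPS and Rag. Against naive it called 27.9% of probe sets for RIP-OVAhi, 32.4% for OCS/LPS cells and 1.88% for Rag, and between RIP-OVAhi and OCS/LPS 1.99%.

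Probe set 1453482_at read 5.06 and 4.71 in RIP-OVAhi cells, 5.33 and 5.15 in OCS/LPS cells, 5.15 in the Rag array, and 5.40 and 6.51 in naive cells. The naive pair lay far apart. The difference of -1.07 between RIP-OVAhi and naive did not pass (SE 0.36, adjusted p = 0.0776) and was -0.52 without naive replicate 2, against -1.62 without naive replicate 1, where it passed (adjusted p = 0.00854). Of the remaining probe sets, 1425687_at ranged from 5.65 to 6.38 and 1425686_at from 4.33 to 5.44, and neither was called in any comparison with all arrays. Each was decided by the naive pair: against naive, 1425686_at passed in OCS/LPS without naive replicate 1 (0.84, adjusted p = 0.0108) and 1425687_at without naive replicate 2 (-0.70, adjusted p = 0.0124).

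**Figure D3:**
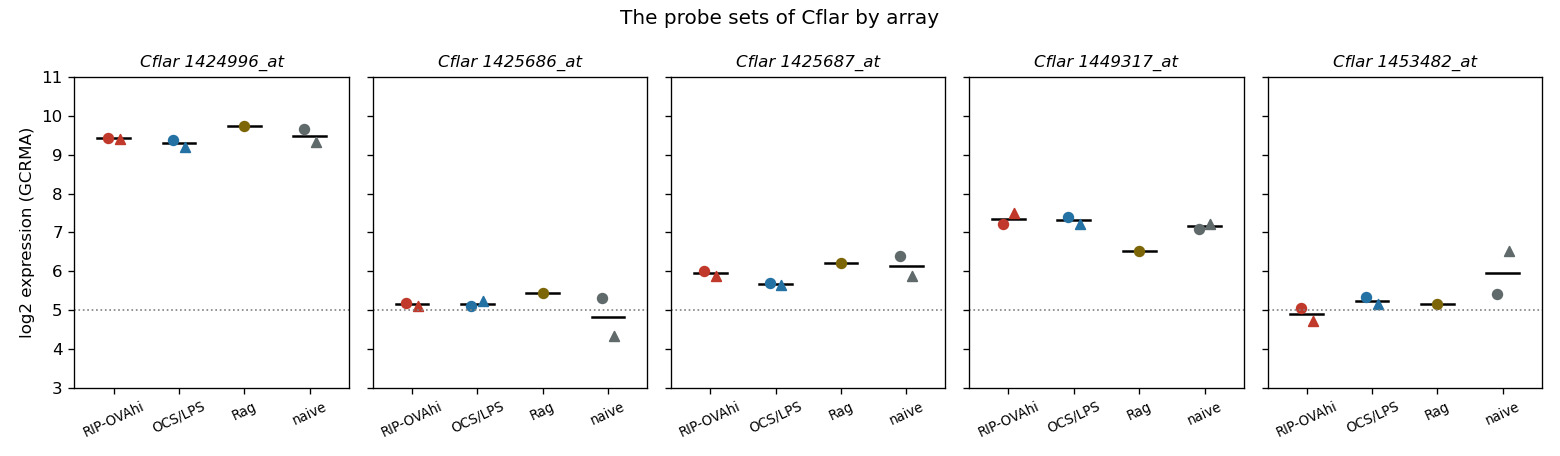
Log2 expression (GCRMA, vertical axis) of the 5 Cflar probe sets in RIP-OVAhi, OCS/LPS, Rag and naive cells, with 1 point per array (circles replicate 1, triangles replicate 2), bars at group means and a dotted line at log2 5. Rag is highest for 1424996_at (9.74) and lowest for 1449317_at (6.51), and the naive arrays stand apart from each other for 1425686_at and 1453482_at.

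In the mitochondrial route the partners of Apaf1 did not pass the test. Casp9 read 5.84 and 5.98 in RIP-OVAhi cells, 5.75 and 6.07 in OCS/LPS cells, 5.98 in the Rag array, and 5.82 and 5.98 in naive cells. The groups overlapped throughout. Its difference from naive was 0.01 in RIP-OVAhi (95% interval -0.38 to 0.40), 0.01 in OCS/LPS (-0.37 to 0.40) and 0.08 in Rag (-0.39 to 0.56). Its other 2 probe sets stayed between 2.79 and 3.22.

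Xiap, the caspase inhibitor, read 10.20 and 10.40 in RIP-OVAhi cells, 10.07 and 10.25 in OCS/LPS cells, 10.22 in the Rag array, and 10.14 and 9.52 in naive cells. One naive array lay low and the other among the divided arrays. The difference from naive was 0.47 in RIP-OVAhi (SE 0.22, adjusted p = 0.170), 0.33 in OCS/LPS (SE 0.22, adjusted p = 0.300) and 0.39 in Rag (SE 0.27, adjusted p = 0.511). These differences rested on naive replicate 2: without naive replicate 1 they were 0.77 in RIP-OVAhi (adjusted p = 0.0182) and 0.64 in OCS/LPS (adjusted p = 0.0279) and passed, whereas without naive replicate 2 they were 0.16 and 0.02. The second tested probe set, 1456088_at, showed the same low naive array, at 7.94 and 7.54 in RIP-OVAhi cells, 7.57 and 7.24 in OCS/LPS cells, 7.42 in the Rag array, and 7.55 and 6.54 in naive cells. It too passed only without naive replicate 1, at 1.20 in RIP-OVAhi (adjusted p = 0.0248) and 0.87 in OCS/LPS (adjusted p = 0.0489). The other 5 Xiap probe sets stayed under log2 5.

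Over the 7 tested members, 1 rose in RIP-OVAhi against naive cells, where 29.6% of all tested genes were called in either direction and 18.1% higher. In OCS/LPS against naive 1 rose, with 32.9% of all tested genes called and 20.5% higher, and in Rag against naive 0 were called, with 2.73% and 2.15% higher. At an unadjusted p under 0.05 that last count was 2, Fas and Apaf1. Between RIP-OVAhi and OCS/LPS limma called 0 of 7 members, and 0 at an unadjusted p under 0.05, with 2.91% of all tested genes called and 1.61% higher. Against Rag, 1 member was higher in RIP-OVAhi, with 16.7% of all tested genes called and 9.84% higher, and 1 in OCS/LPS cells, with 18.1% called and 11.2% higher. A count of 1 of 7 members lies near or under these shares. The median log2 difference of the members from naive was 0.26 in RIP-OVAhi cells, 0.33 in OCS/LPS cells, 0.27 in the Rag array, beside 0.06, 0.08 and 0.04 over all tested genes. Centring each array on the median of the tested genes moved the differences from naive by -0.12 in RIP-OVAhi cells, -0.15 in OCS/LPS and -0.06 in Rag. The split of calls then fell to 47.9% higher in RIP-OVAhi, from 61.0% without centring, to 47.8% from 62.5% in OCS/LPS and to 68.4% from 78.6% in Rag. The calls of the members stayed at 1, 1 and 0. The differences from naive of Casp8 in RIP-OVAhi (0.17) and Casp9 in Rag (0.08) were close in size to that shift. Those of Casp8 in OCS/LPS (-0.01) and Casp9 in both antigen-driven groups (0.01 each) were smaller, and that of Casp8 in Rag (0.27) was larger.

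**Figure D4:**
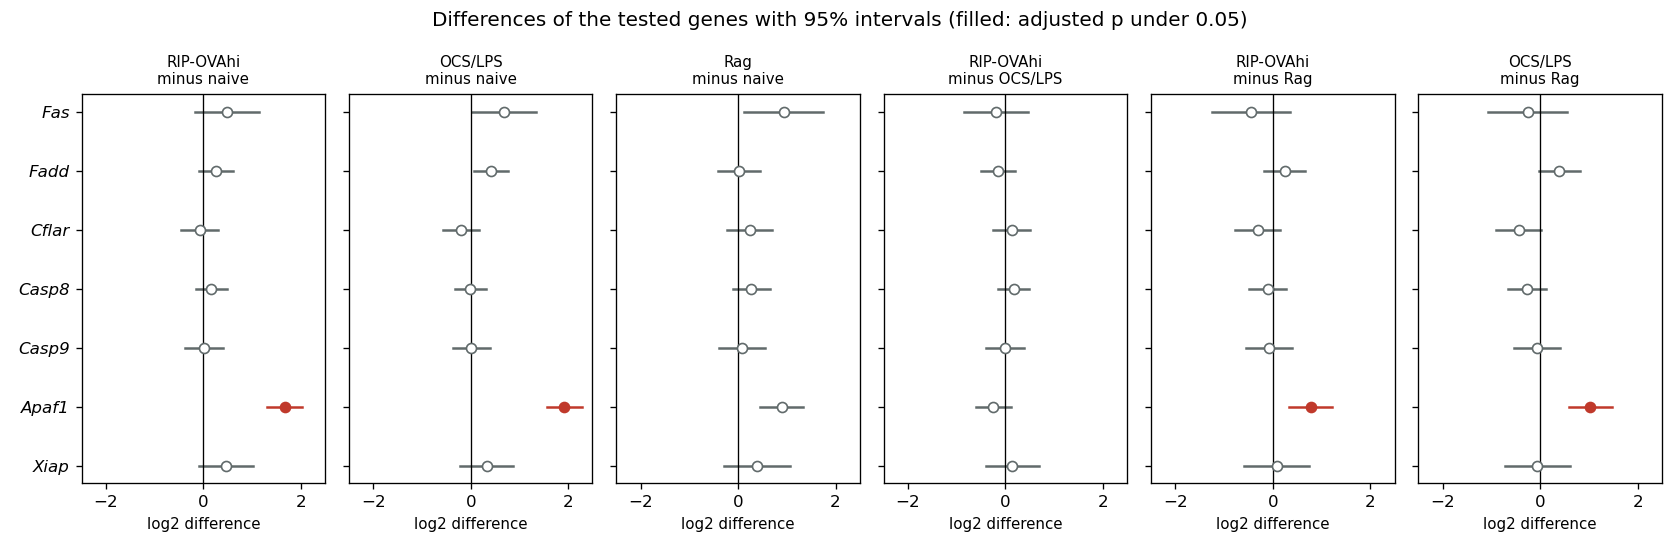
Log2 differences (horizontal axes) of the 7 tested genes in the 6 comparisons, each point a fitted difference with its 95% interval and filled where the adjusted p is under 0.05. Apaf1 is filled in 4 panels (1.67, 1.92, 0.78 and 1.03) and no other gene is filled in any.

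Around these components, 35 of 42 other named genes of the pathways were tested; a further 3 of the 45 listed were not analysed here. Against naive cells 6 rose and 1 fell in RIP-OVAhi, 7 rose and 1 fell in OCS/LPS cells, and 1 gene rose in the Rag array. That is 7, 8 and 1 of 35, where 29.6%, 32.9% and 2.73% of all tested genes were called, so nothing particular to the pathways is read from these counts or from those per list below. The counts include Casp4, Birc5 and Tnfrsf25, which would not have passed the filter on low values without the groups where they are high. The median difference of the 35 genes was 0.25, 0.12 and -0.05, beside 0.06, 0.08 and 0.04 over all tested genes. Between RIP-OVAhi and OCS/LPS 0 were called by limma, where 2.91% of all tested genes were called, and 4 had an unadjusted p under 0.05. Against Rag, 8 of 35 rose in RIP-OVAhi, and 7 rose and 1 fell in OCS/LPS, where 16.7% and 18.1% of all tested genes were called. Nothing particular to the pathways is read from these counts either.

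Among death receptors and ligands, 1 of 4 tested genes fell and 0 rose in each antigen-driven group against naive. It was Tnfrsf25, which encodes the death domain receptor DR3, at 4.32 and 4.22 in RIP-OVAhi cells, 3.30 and 4.86 in OCS/LPS cells, 3.90 in the Rag array, against 6.41 and 6.54 in naive cells. Every divided array was near background and both naive arrays were above it. Tnfrsf25 entered the test only through the naive arrays, so no fold or p is given for it, and its call in RIP-OVAhi was lost without either RIP-OVAhi array. Tnf, Tnfrsf1a and Tnfsf10 were tested and not called in any comparison.

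Of 10 tested adaptors and regulators of the receptor complex, 2 rose and 0 fell in each antigen-driven group. Ripk3, the kinase of necroptosis, read 9.14 and 9.11 in RIP-OVAhi cells, 9.54 and 9.58 in OCS/LPS cells, 8.86 in the Rag array, and 8.21 and 8.12 in naive cells. The 4 groups did not overlap, where 57.6% to 87.2% of all tested genes did not overlap between 2 groups, depending on the pair. Ripk3 was 0.96 higher than naive in RIP-OVAhi (SE 0.11, adjusted p = 0.00271) and 1.39 higher in OCS/LPS (SE 0.11, adjusted p = 0.00055). The direct difference of RIP-OVAhi from OCS/LPS, -0.44, did not pass (SE 0.11, adjusted p = 0.14). Tradd, the adaptor of TNF receptor 1, rose by 0.48 over naive in each (SE 0.12, adjusted p = 0.029 and 0.0268), and both calls were lost without any of the 4 RIP-OVAhi or OCS/LPS arrays. Mlkl, the membrane effector of necroptosis, was not tested, with 4.47 and 5.23 in OCS/LPS and at most 3.08 elsewhere.

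Of 4 other caspases tested, 2 rose in each antigen-driven group, both of the inflammatory kind. Casp1, which matures interleukin-1 beta, read 7.09 and 6.70 in RIP-OVAhi cells, 7.61 and 7.61 in OCS/LPS cells, 5.07 in the Rag array, against 5.01 and 4.91 in naive cells. Casp4, the mouse caspase that senses lipopolysaccharide in the cytosol, read 6.02 and 5.22 in RIP-OVAhi cells, 5.97 and 5.82 in OCS/LPS cells, 2.62 in the Rag array, against 2.42 and 2.29 in naive cells. For both genes the Rag array stood with the naive arrays. Casp1 was 1.94 higher than naive in RIP-OVAhi (SE 0.16, adjusted p = 0.00067) and 2.65 higher in OCS/LPS (SE 0.16, adjusted p = 0.000177). Casp4 reached log2 5 only on the 4 antigen-driven arrays and entered the test through them, so its calls are a description and no fold or p is given against Rag or naive values near background. Against Rag, Casp1 was 1.83 higher in RIP-OVAhi (adjusted p = 0.00361) and 2.54 higher in OCS/LPS (adjusted p = 0.00121). These Casp1 calls held without each array in turn. Casp1 lay close to log2 5 on the naive and Rag arrays (4.91 to 5.07), so the sizes of these differences rest on values near the filter level. Casp1 differed by -0.71 between RIP-OVAhi and OCS/LPS (SE 0.16, adjusted p = 0.0989) and did not pass. Myeloid cells also express Casp1. Beside these values, 0 of the 9 myeloid markers reached log2 5 in RIP-OVAhi cells and the myeloid sum was highest in the Rag array. The B cell marker Cd22 was higher in RIP-OVAhi and OCS/LPS cells than in Rag and naive cells. The B cell sum was highest in OCS/LPS (12.72 to 12.73), but lower in RIP-OVAhi (11.99 to 12.04) than in naive arrays (12.20 to 12.27). That sum was mostly Ighm. Ighm and Ms4a1 were also lower in RIP-OVAhi than in naive arrays, whereas Cd79b averaged higher (8.16 against 7.69), with overlapping arrays. The part of these markers in the values of Casp1 and Casp4 was not tested. Casp2 and Casp6 were not called in any comparison.

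**Figure D5:**
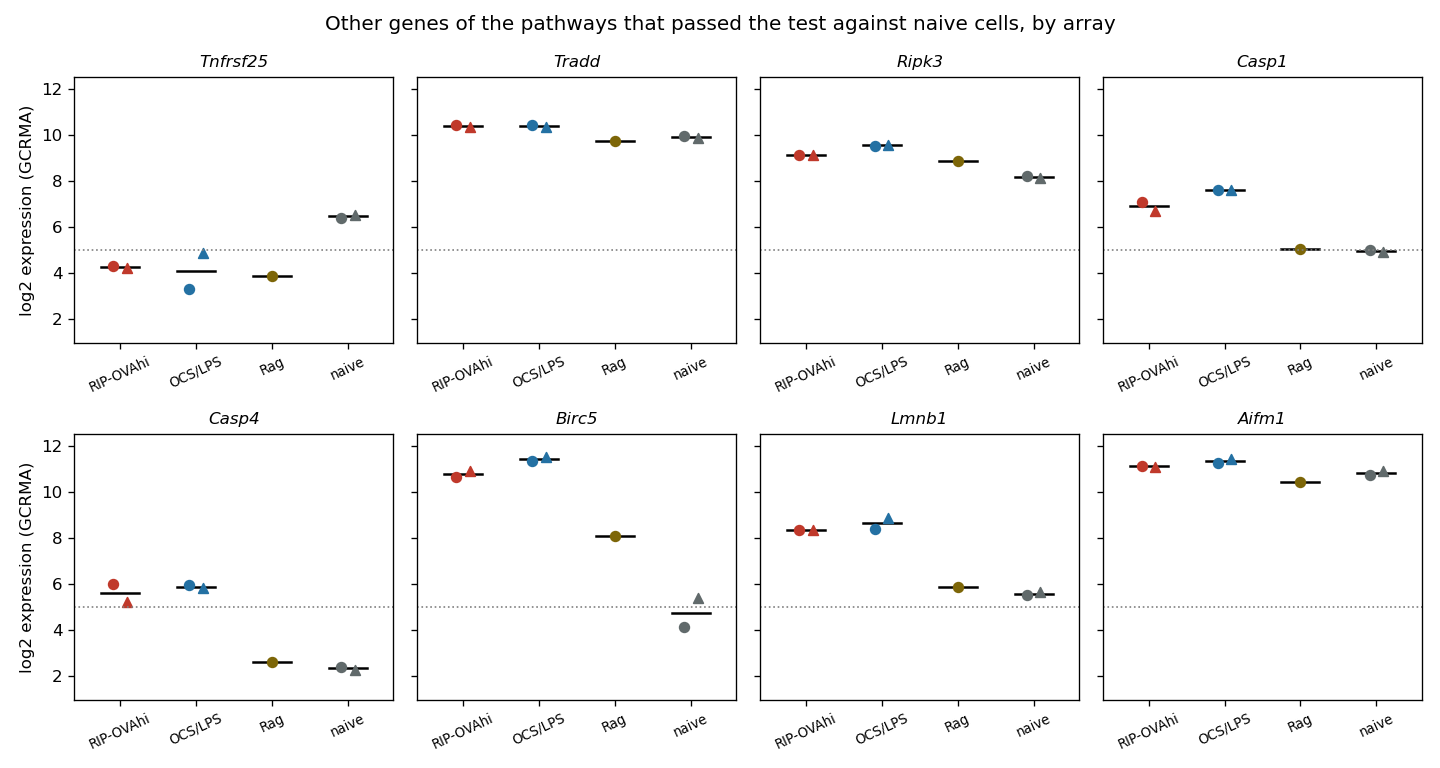
Log2 expression (GCRMA, vertical axis) of 8 other genes of the pathways in RIP-OVAhi, OCS/LPS, Rag and naive cells, with 1 point per array (circles replicate 1, triangles replicate 2), bars at group means and a dotted line at log2 5. Casp1 and Casp4 are above the line in RIP-OVAhi and OCS/LPS and at or under about log2 5 in the naive arrays (2.29 to 5.01), Birc5 spans 4.16 to 11.52, and Tnfrsf25 is above the line only in the 2 naive arrays.

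Of 6 mitochondrial factors, 0 were called in RIP-OVAhi against naive and 1 rose in OCS/LPS. It was Aifm1, the apoptosis-inducing factor, 0.52 higher (SE 0.13, adjusted p = 0.0295), a call lost without any of the 4 RIP-OVAhi or OCS/LPS arrays. Aifm1 was also higher than Rag, by 0.68 in RIP-OVAhi (adjusted p = 0.0391) and 0.92 in OCS/LPS (adjusted p = 0.0164), and so was Htra2, a mitochondrial protease, in RIP-OVAhi (0.89, adjusted p = 0.0381); all 3 calls were lost the same way. Cycs, which encodes cytochrome c, and Diablo, which encodes an XIAP antagonist, were not called in any comparison, and Cycs lay at 12.59 and 12.70 in RIP-OVAhi cells, 12.83 and 12.80 in OCS/LPS cells, 12.68 in the Rag array, and 12.69 and 13.22 in naive cells.

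Of 5 genes in the IAP list, 1 rose in each divided group against naive. It was Birc5, which encodes survivin, a protein of the mitotic chromosomal passenger complex, at 10.62 and 10.89 in RIP-OVAhi cells, 11.35 and 11.52 in OCS/LPS cells, 8.10 in the Rag array, and 4.16 and 5.38 in naive cells. Naive replicate 1 lay under log2 5, and Birc5 would not have passed the filter without the divided arrays. Its calls against naive are therefore a description, and no fold or p is given for them. The call of Rag against naive was lost without any of the RIP-OVAhi or OCS/LPS arrays. Birc2, Birc3 and Birc6 were not called against naive, and Birc3 was 0.79 lower in OCS/LPS than in Rag (SE 0.20, adjusted p = 0.0479), a call lost without the same arrays. Of 6 tested caspase targets 1 rose in each antigen-driven group: Lmnb1, which encodes lamin B1 of the nuclear envelope, by 2.77 in RIP-OVAhi (SE 0.18, adjusted p = 0.000282) and 3.05 in OCS/LPS (SE 0.18, adjusted p = 0.000163). It read 8.36 and 8.36 in RIP-OVAhi cells, 8.40 and 8.89 in OCS/LPS cells, 5.89 in the Rag array, against 5.52 and 5.66 in naive cells. Lmnb1 was also above Rag, by 2.47 in RIP-OVAhi (adjusted p = 0.00198) and 2.75 in OCS/LPS (adjusted p = 0.00143), calls that held without each array in turn. Birc5 was above Rag by 2.66 in RIP-OVAhi (adjusted p = 0.0162) and 3.34 in OCS/LPS (adjusted p = 0.00803). The RIP-OVAhi call was lost without any of the 4 antigen-driven arrays, and the OCS/LPS call without either OCS/LPS array. Among the adaptors, Traf2 (0.84) and Tradd (0.65) were higher than Rag in RIP-OVAhi, and Ripk3 (0.70) and Tradd (0.65) in OCS/LPS (adjusted p = 0.0449, 0.0333, 0.0245 and 0.032), each lost without any of the 4 arrays.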

How the data were processed

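RNA of sorted OT-I cells was measured on 7 Affymetrix mouse arrays, from 100 ng of total RNA after 2-cycle amplification per the labels' protocols. The authors deposited log2 values of 45101 probe sets that came from GCRMA according to the notes on processing (per the submitters' processing notes); the version was not given in the sources used here. The method models background by probe sequence and then equalises the distribution of all arrays, which hides any shift common to most transcripts. The values were used as deposited.

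The platform annotation gave 34958 probe sets 1 gene symbol, 932 several and 9211 none, and the first kind was used. For each gene the brightest probe set on average was kept. Testing required log2 5 or more on at least 2 arrays, and lower values are termed near background. The 7 arrays entered one linear model of group means, using lmFit and eBayes of limma 3.58.1 (R 4.3.3; 3 residual degrees of freedom, prior 2.93). P-values are two-sided and adjusted by Benjamini-Hochberg over all tested genes, and a call is an adjusted p under 0.05. A second fit took all probe sets that passed the filter. Arrays carry no read depth, and their number limits the precision. Whether replicate pools were independent experiments is not stated, and p-values therefore reflect only the spread among these arrays, which may be technical. The procedure was tested on simulated data.

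Named genes were all 8 members, per pathway list and comparison the 2 called genes with the largest difference, and the 3 genes most like each member spanning at least 1 on the log2 scale; genes named beside these were chosen after their values were seen. The members, lists and tests were chosen with earlier results of these data known. The alternatives tried are given in the closing section.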

Additional observations from a re-analysis of the deposited data

Results flagged for a closer look

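In a direct comparison that rests on a single Rag array, Apaf1 was 0.78 higher on the log2 scale in RIP-OVAhi than in Rag (adjusted p = 0.0365, limma) and 1.03 higher in OCS/LPS than in Rag (adjusted p = 0.0164), with both arrays of each antigen-driven group above the Rag array. Among all tested genes, 86.0% did not overlap between RIP-OVAhi and Rag and 87.2% between OCS/LPS and Rag. The RIP-OVAhi call was lost in 8 of 14 alternatives and the OCS/LPS call in 5 of 14, with adjusted p from 0.0147 to 0.182 and from 0.00784 to 0.101, and with only the compared groups in the fit 0 genes were called at all (3318 and 3312 at an unadjusted p under 0.05, limma). The Cflar probe set 1449317_at also differed, by 0.84 between RIP-OVAhi and Rag (adjusted p = 0.0389) and by 0.80 between OCS/LPS and Rag (adjusted p = 0.0426), again in 2 of 2 arrays each, while the main Cflar probe set was not called; both calls were lost without any of the RIP-OVAhi or OCS/LPS arrays. Rag has 1 array and a later time, so host, time and array cannot be told apart.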

How the results depend on the processing

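Of 585 recomputed member differences, 564 kept their side of the threshold, 8 newly passed, 13 no longer passed and 0 reversed as called values. The settings were the mean of all probe sets, no filter, a filter at log2 6, centring on the array median, a variance trend, a replicate block, the compared groups alone and leaving out each array; centring on the tested genes was added after seeing the data. Genes missing from a filtered table gave no value, and leaving out Rag gave none for its own comparisons. With only the compared groups in the fit, called genes numbered 1601 in RIP-OVAhi against naive (2429 in the fit of all arrays) and 416 in RIP-OVAhi against OCS/LPS (239; 105 with no filter). They numbered 0 in each comparison with Rag, where 543 (Rag against naive), 3318 (RIP-OVAhi against Rag) and 3312 (OCS/LPS against Rag) had an unadjusted p under 0.05 in limma, and member and pathway calls there were 0 too (unadjusted, 1, 3 and 2 members and 3, 14 and 12 pathway genes in the same order). The lone Rag array leaves 1 residual degree of freedom in those fits. Rag against naive gave 1 member call with centring on the array median, and 2 pathway calls with the mean of probe sets or with no filter (1 in the fit of all arrays). RIP-OVAhi against Rag gave 0 member calls with the mean of probe sets, with no filter and with the replicate block, and 4 pathway calls with no filter.

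Same-numbered arrays shared deviations from their group means at r = 0.325 (RIP-OVAhi and OCS/LPS), 0.348 (RIP-OVAhi and naive) and 0.132 (OCS/LPS and naive), but at -0.02, 0.20 and -0.06 over autosomal genes; with 2 replicates a group and no label of a shared origin, the numbers were not taken as pairs. With the replicate block, pathway calls were 4 in RIP-OVAhi against Rag and 5 in OCS/LPS against Rag (8 each without it), and Apaf1 differed by 0.69 between RIP-OVAhi and Rag (adjusted p = 0.0653, limma) and was not called.

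Over the arrays left out, member calls ranged from 1 to 2 in RIP-OVAhi and in OCS/LPS against naive, from 0 to 1 in Rag against naive and in RIP-OVAhi against Rag, and from 0 to 2 in OCS/LPS against Rag; they stayed at 0 in RIP-OVAhi against OCS/LPS. Called genes ranged from 794 to 3260 in RIP-OVAhi against naive, 983 to 3621 in OCS/LPS against naive, 68 to 1606 in Rag against naive, 21 to 419 in RIP-OVAhi against OCS/LPS, 348 to 2553 in RIP-OVAhi against Rag and 367 to 2829 in OCS/LPS against Rag. Pathway calls ranged from 5 to 13, 6 to 13, 0 to 9, 0 to 0, 3 to 8 and 3 to 10 in the same order. The cause of these shifts was not tested; leaving out an array also removes a residual degree of freedom, except for Rag.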
